A study of Mus musculus with 6 samples.

Results

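Dclk1, Wwox, Aff3, Nav2, Tenm4 and Cdk14 are 6 long mouse genes at which many open chromatin regions were listed as more accessible in fibroblasts with the FOP mutation than in wild-type fibroblasts. They were chosen because each spans over 290 kb and each was linked to 5 or more rows of the authors' deposited list of more accessible regions. A region was linked to a gene when its midpoint lay inside the gene's span, or, outside all protein-coding spans, when that gene was the nearest within 100 kb. The 6 genes hold 36 of the 2965 more accessible regions (1.21%) and 1 of the 556 less accessible regions (0.180%). They are 6 of 20 protein-coding genes over 290 kb that reached 5 regions, out of 586 genes of that length. The rule used these counts, so they describe the genes and test nothing.

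Open chromatin was measured in mouse embryonic fibroblasts, isolated at embryonic day E13.5, by ATAC-seq, which uses a transposase to insert sequencing tags into accessible DNA. The mutant cells (3 libraries) carried 1 copy of the activating allele (Acvr1R206H/+), and the wild-type cells (3 libraries) were Acvr1+/+. The product of Acvr1 is ALK2, a type I receptor for BMP ligands, and the mutation causes fibrodysplasia ossificans progressiva (FOP), in which bone forms in soft tissue. Cells of both genotypes were grown in the same medium with serum. Separate embryos for each library are not mentioned in the labels, which call the libraries biological replicates. The lists give a chromosome, a start and an end for each region, and their direction in mutant cells comes from the name of the list. They hold no value for any library, so depth is unknown, no spread between replicates can be given and no p-value was computed. In bulk chromatin, more open copies and more cells with an open copy cannot be told apart.

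Long genes carry much of the genome's intronic DNA, and open regions inside introns are often enhancers. Such an element can act on the gene that holds it or on a neighbour, so a link by position names no target. The 6 genes have different roles. Dclk1 and Nav2 encode proteins of the microtubule cytoskeleton, known mostly from neurons. Tenm4 encodes a teneurin, a large transmembrane protein of cell adhesion, and Cdk14 a kinase that acts with cyclin Y on the WNT co-receptor LRP6. Aff3 encodes a nuclear protein of the AF4/FMR2 family, whose members act in transcription elongation. Wwox encodes a WW-domain oxidoreductase that binds the osteoblast transcription factor RUNX2 and lies at a common chromosomal fragile site.

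In 5 of the 6 genes all linked more accessible regions were inside the span. The exception was Aff3, with 3 regions inside and 3 beyond its 5′ end, so that the description of many intragenic regions does not hold for that gene to the same degree. Over the 6 genes, 33 of the 36 regions (91.7%) were inside. No other protein-coding gene overlapped any of the 6 spans, so no region was shared with another one. Of all 586 protein-coding genes over 290 kb, 3.41% were linked to 5 or more such regions and 47.3% to at least 1.

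**Figure D1:**
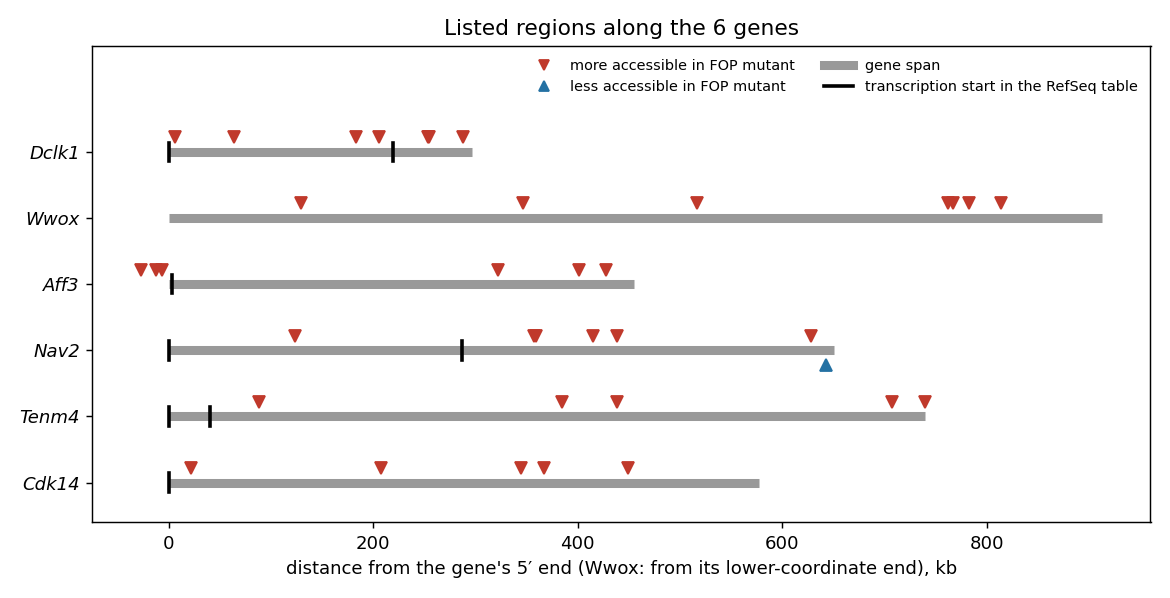
Each grey bar is 1 gene drawn to scale, with the distance in kb from its 5′ end on the x axis (for Wwox from its lower-coordinate end), red triangles for more accessible and blue for less accessible regions in FOP mutant cells, and black ticks for transcription starts in the RefSeq table. Aff3 has 3 red triangles left of its 5′ end, and Nav2 has the 1 blue triangle, near its 3′ end.

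Promoters of Dclk1 and Aff3 are shown first, since transcription starts are the reference points for some of the distances that follow. The RefSeq (GRCm38.p6) promoter table used here gives 8 transcription starts for 5 of the genes, Dclk1, Aff3, Nav2, Tenm4 and Cdk14. It is not complete: it gives no start or strand for Wwox, and a strand for 440 of the 580 other genes over 290 kb. None of the 36 regions overlapped a listed promoter, the window from 250 bases before to 50 bases after a start. The 3 starts below are those with a more accessible region of the gene within 15 kb, chosen after the distances were seen. Capitals mark matches to 4 motifs searched on both strands: the GC-rich SMAD element GGCGCC, the SMAD-binding element CAGAC, the AP-1 site TGANTCA and the TEAD site GGAATG.
Dclk1 first start, chr3:55242114-55242413, plus strand: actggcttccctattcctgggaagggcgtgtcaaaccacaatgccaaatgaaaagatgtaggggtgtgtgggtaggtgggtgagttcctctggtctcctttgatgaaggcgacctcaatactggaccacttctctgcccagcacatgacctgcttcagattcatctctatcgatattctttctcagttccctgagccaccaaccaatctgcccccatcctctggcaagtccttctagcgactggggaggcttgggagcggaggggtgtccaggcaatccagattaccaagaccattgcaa
Dclk1 internal start, chr3:55461478-55461777, plus strand: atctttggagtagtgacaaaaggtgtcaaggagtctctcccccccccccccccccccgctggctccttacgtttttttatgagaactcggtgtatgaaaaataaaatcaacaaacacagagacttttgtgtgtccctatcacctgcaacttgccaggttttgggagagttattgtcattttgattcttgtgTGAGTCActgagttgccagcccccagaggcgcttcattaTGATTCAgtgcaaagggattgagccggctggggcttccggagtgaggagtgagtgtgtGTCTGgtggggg
Aff3 start, chr1:38627195-38627494, minus strand: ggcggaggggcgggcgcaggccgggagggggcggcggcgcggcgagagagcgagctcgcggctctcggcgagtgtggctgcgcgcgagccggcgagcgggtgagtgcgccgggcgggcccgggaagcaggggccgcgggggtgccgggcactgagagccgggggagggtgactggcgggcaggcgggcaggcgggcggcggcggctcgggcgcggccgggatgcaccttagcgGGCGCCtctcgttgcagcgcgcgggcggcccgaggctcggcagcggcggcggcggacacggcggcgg

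The first Dclk1 window held no match to any of the 4 motifs, with 5 CpG dinucleotides and 52.7% GC. The internal Dclk1 window held 2 matches to TGANTCA, which do not overlap each other, and 1 to CAGAC. Among all 32851 promoter windows of 300 bases, 7.81% held TGANTCA and 49.6% held CAGAC. The Aff3 window was of another base composition, with 83.3% GC and 54 CpG against medians of 52.7% and 7 over all windows, and held 1 match to GGCGCC, which 11.9% of all windows hold. Cdk14, whose window has 81.3% GC, also held 1 GGCGCC. Over the 8 windows, 2 held GGCGCC, 2 held CAGAC, 1 held TGANTCA and 1, of Tenm4, held GGAATG, which 14.7% of all windows hold. These matches are a description of the letters, and the sequence of the regions themselves was not used here.

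Dclk1, the doublecortin-like kinase that binds microtubules, had the densest set of regions. It spans 297 kb on chromosome 3 (chr3:55242303-55539068, GRCm38, plus strand) and held 7 more accessible regions, or 2.36 per 100 kb, and no less accessible region. No other gene over 290 kb had more per 100 kb. The first region, chr3:55248046-55248857, lay 6.09 kb from the first transcription start, 2.07% of the way along the span. The second, chr3:55305727-55306054, lay at 21.4% of the span. The gene can be transcribed from an internal start as well, which gives a shorter product. On its 5′ side, chr3:55425418-55426015 and chr3:55447894-55448426 lay 36.0 and 13.6 kb from that internal start. On its 3′ side lay a pair, chr3:55495900-55496277 and chr3:55496408-55497040, with 130 bp between their edges, 34.4 and 35.0 kb from the internal start. The last region, chr3:55529462-55529844, was at 96.8% of the span. Of the 7 regions 5 therefore fell within 104 kb at the 3′ end, and the longest stretch without one was 120 kb. With neighbours within 10 kb merged, Dclk1 had 6.

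Nav2, a neuron navigator that associates with microtubules and was first described as induced by retinoic acid, was the only one of the 6 with regions in both directions. It spans 651 kb on chromosome 7 (chr7:48959063-49610090, plus strand), with a second transcription start 287 kb into the span. It had 6 more accessible regions, 0.922 per 100 kb. The 5′ one, chr7:49082594-49083233, lay at 19.0% of the span, ahead of the second start. Then 4 regions followed the second start by 69.8 to 151 kb and lay within 81.5 kb. They were chr7:49315882-49316081 and chr7:49317959-49318803, 1.88 kb apart, and chr7:49373665-49374065 and chr7:49396899-49397365. The last, chr7:49586500-49586987, was at 96.4% of the span. The less accessible region, chr7:49601069-49602057, was 989 bp wide and lay at 98.7% of the span. Its midpoint was 14.8 kb from that of the nearest more accessible region. The 3′ end of Nav2 thus held a more and a less accessible region close together.

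At least 1 less accessible region was linked to 1 of the 6 genes (16.7%) and to 9.73% of all 586 genes over 290 kb. Of the other 14 genes over 290 kb with 5 or more gained regions, 3 had a less accessible one (21.4%). Both lists come from 1 contrast and the members were chosen on it, so these shares were not tested.

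Tenm4, a teneurin required for mesoderm formation and for myelination in mice, had its regions the farthest apart. It spans 740 kb on chromosome 7 (chr7:96171244-96911093, plus strand) and held 5 more accessible regions, 0.676 per 100 kb, with a median distance of 162 kb between neighbouring midpoints. The first, chr7:96259525-96259919, lay 48.1 kb beyond the second of its 2 transcription starts. A middle pair, chr7:96555339-96556128 and chr7:96609460-96610395, lay 54.2 kb apart at 52.0% and 59.3% of the span. The last pair, chr7:96878243-96879068 and chr7:96910456-96910957, lay 32.1 kb apart at 95.6% and 99.9%. The final region is the one region of the 36 with a midpoint under 1 kb from an end of its gene, and that end is where transcription of Tenm4 stops. No Tenm4 region had a neighbour within 10 kb.

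Cdk14, the PFTAIRE kinase of WNT signalling at the membrane, held 5 more accessible regions over 577 kb of chromosome 5 (chr5:4803384-5380251, minus strand), 0.867 per 100 kb. Counted from its start, the regions lay at 3.80%, 36.0%, 59.7%, 63.7% and 77.8% of the span. The first of these, chr5:5358025-5358694, was 21.9 kb from the transcription start. It was followed by chr5:5172454-5172706 and by a pair 22.9 kb apart, chr5:5035591-5035860 and chr5:5012566-5013091. The widest, chr5:4930887-4931955, was 1069 bp and lay 449 kb from the start. As at Tenm4, no region had a neighbour within 10 kb.

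Aff3, the AF4/FMR2 family gene, had 2 separate groups of regions with a long empty stretch between them. It spans 455 kb on chromosome 1 (chr1:38175393-38630178, minus strand) and had 6 linked regions, 1.32 per 100 kb, or 0.660 with the inside ones alone. The 5′ group lay outside the gene, at chr1:38636747-38637073, chr1:38642082-38642756 and chr1:38657361-38658064, which were 6.73, 12.2 and 27.5 kb from the span and 9.67, 15.2 and 30.5 kb from the listed transcription start. These 3 regions lay within 21.3 kb. The 3′ group, inside the gene, was chr1:38201905-38203209, chr1:38228704-38229378 and chr1:38307535-38308545, within 107 kb and 319 to 425 kb from the start. The first of them, at 1305 bp, was the widest of the 36. Between the groups, 322 kb from the 5′ end of the span held no listed region.

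Wwox, the WW-domain oxidoreductase, spans 913 kb of chromosome 8 (chr8:114439635-115352712) and held 7 more accessible regions, 0.767 per 100 kb. Counted from its lower coordinate, the first 3 regions, chr8:114568689-114569069, chr8:114785679-114786299 and chr8:114956102-114957128, were spread at 14.2%, 37.9% and 56.6% of the span. The other 4 lay within 52.6 kb, at 83.5% to 89.2%. They were chr8:115201552-115202160, chr8:115206080-115206366, chr8:115222169-115222368 and chr8:115253768-115254147, with midpoints 4.37, 16.0 and 31.7 kb apart. The longest empty stretch, 245 kb, separated both sets. Wwox therefore combined a scattered part with a local group, where Tenm4 and Cdk14 had regions spread over the span.

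Along the 5 genes with a strand in the promoter table used here, most regions inside the gene lay closer to its 3′ end than to its 5′ end. There were 20 of 26 closer to the 3′ end (76.9%) and 6 closer to the 5′ end. By gene, the numbers closer to the 3′ and to the 5′ end were 5 and 2 at Dclk1, 5 and 1 at Nav2, 4 and 1 at Tenm4, 3 and 2 at Cdk14, and 3 and 0 at Aff3. Aff3 also had 3 linked regions beyond its 5′ end, as many as inside, which are not counted among the 26. Of the inside regions of the other genes over 290 kb with a strand in the table, 239 of 378 (63.2%) lay closer to the 3′ end. Regions of 1 gene are not independent of each other and the positions come from the same list that chose the genes, so the difference was not tested. At Wwox, 5 of 7 lay closer to the upper-coordinate end.

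Many regions were far from the listed transcription starts of their gene. The rule asked for spans over 290 kb, so long distances are tied to it, and other long genes were not compared. Over the 29 regions of genes with a listed start, the distance to the nearest of them ran from 6.09 kb at Dclk1 to 699 kb at Tenm4, with a median of 124 kb, and 15 were over 100 kb away. To the nearest start of any gene in the promoter table, coding or not, 4 of 36 regions (11.1%) were within 10 kb and 0 within 1 kb. Over all 2846 more accessible regions on the chromosomes of that table, 15.8% were within 10 kb and 1.51% within 1 kb. Starts of some protein-coding genes, such as Wwox, are missing from it, so all these shares may be too low. Close neighbours were found at 4 genes: 8 of the 36 regions (22.2%) had a region of the same list within 10 kb, 2 each at Dclk1, Wwox, Aff3 and Nav2, against 345 of 2965 (11.6%) in the list as a whole. Genes with many regions have closer regions, so this share is tied to the rule.

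The regions had a median width close to that of the list. Their median was 566 bp, with a mean of 587 ± 268 bp (SD over 36 regions), and the median of all more accessible regions was 572 bp. Within the interquartile range of the list, 439 to 762 bp, lay 14 of the 36 (38.9%). The gene medians ran from 381 bp at Wwox to 790 bp at Tenm4. Dclk1 (533 bp), Cdk14 (526 bp) and Nav2 (478 bp) lay between, as did Aff3 (690 bp), and the ranges of all 6 overlapped. At Wwox and Nav2 the narrowest region was 200 bp, the smallest width in the list, which 12 of 2965 regions have. All linked regions of a gene together covered 2.79 kb at Cdk14 to 4.70 kb at Aff3. Inside the spans this was 1.23% of Dclk1 and 0.384% to 0.658% of the other 5.

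**Figure D2:**
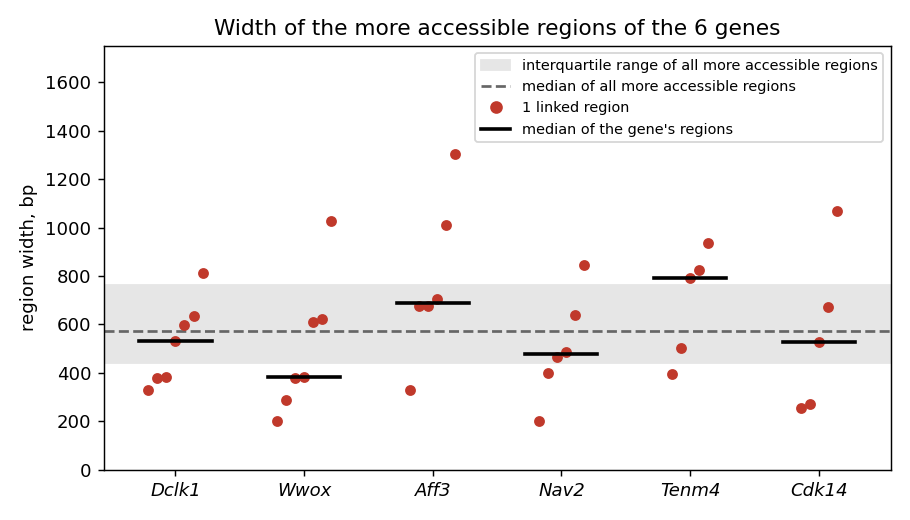
Width in bp of each more accessible region of the 6 genes (red points), with the median of each gene (black bar), the median of the whole list (dashed line, 572 bp) and its interquartile range (grey band, 439 to 762 bp). The points of every gene fall on both sides of the dashed line.

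Listed regions were also linked to 3 of the flanking genes, Lonrf2, Nbea and E2f8. Of the 12 nearest protein-coding neighbours, 1 on each side of each gene, 2 (16.7%) were linked to more accessible regions and 1 (8.33%) to less accessible ones. Over all 21887 protein-coding genes, 7.27% were linked to at least 1 more accessible region and 1.99% to at least 1 less accessible region. Nbea, at 559 kb, is itself a gene over 290 kb, and of those 47.3% were linked to at least 1 more accessible region. In 9 of the 12 intervals between a gene and its neighbour there was no listed region. With 12 genes, 1 gene more or less moves these shares by 8.33 percentage points, and the difference was not tested.

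The interval on the 5′ side of Aff3 was the fullest. It is 163 kb long and reaches to Lonrf2, a RING-finger protein gene. It held 5 more accessible regions, the 3 linked to Aff3 and 2 linked to Lonrf2, chr1:38715648-38716265 and chr1:38735464-38736237. These 2 lay 77.7 and 57.8 kb from Lonrf2, and 85.8 and 106 kb from Aff3. On the 3′ side Rev1, a DNA polymerase of translesion synthesis, lay 45.5 kb away with no listed region.

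Nav2 had less accessible regions on its 5′ side. The 77.0 kb between Nav2 and E2f8, a repressor of cell cycle genes, held 2, chr7:48887890-48889155 and chr7:48899361-48899936, which lay 6.45 and 17.6 kb from E2f8 and were linked to it. No more accessible region lay in that interval. Dbx1, a homeobox gene of spinal cord interneurons, lies 21.4 kb beyond the 3′ end of Nav2, with its own 3′ end toward Nav2, and had no linked region.

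Wwox lies next to Maf, a bZIP transcription factor gene, across 351 kb with no protein-coding gene. That interval held 1 more accessible region, chr8:115510366-115510644, 158 kb from Wwox and 193 kb from Maf, which is linked to neither at the limit of 100 kb. On the other side Clec3a, a lectin gene of cartilage, lay 11.5 kb from Wwox and had no linked region.

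Cdk14 lies 45.2 kb from Fzd1, which encodes a Frizzled receptor of WNT ligands, and neither Fzd1 nor Pttg1ip2, 57.6 kb away on the 5′ side, had a linked region. Tenm4 has a gene-poor 5′ side, with 2987 kb to the next protein-coding gene, Gm15501, and no listed region in it. On its 3′ side Nars2, a mitochondrial tRNA synthetase gene, begins 39.7 kb away, without a linked region. Next to Dclk1, Sohlh2, a germ cell transcription factor gene, had no region, and Nbea, a long gene of vesicle traffic 86.1 kb away, had 1 more accessible region, 613 kb from Dclk1.

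Paralogues of 5 of the genes, which share protein domains with them, had 0 to 3 more accessible regions each. Of 15 paralogues, 4 (26.7%) were linked to more accessible regions, 8 in all, and 1 (6.67%) to a less accessible region. Of all protein-coding genes, 7.27% and 1.99% were, and of genes over 290 kb 47.3% and 9.73%. The median was 0 more accessible regions for the paralogues, and 0 for the doublecortin relatives Dclk2, Dclk3 and Dcx one by one. Aff1 had 1, and Aff2 and Aff4 had 0. Nav1, which also had 1 less accessible region, had 2 more accessible ones, and Nav3, at 774 kb longer than Nav2, had 0. Tenm2 had 2, and Tenm1 and Tenm3, both longer than Tenm4, had 0. Cdk17, a gene of 90.2 kb, had 3, and Cdk15, Cdk16 and Cdk18 had 0. The 5 paralogues over 290 kb were Aff2, Nav3, Tenm1, Tenm2 and Tenm3, of which Tenm2 alone had a region. Aff2, Tenm1, Dcx and Cdk16 are on X, which holds 29 regions of the list. Since Dclk1, Aff3, Nav2, Tenm4 and Cdk14 were chosen for high counts, the contrast with their relatives follows in part from the choice.

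**Figure D3:**
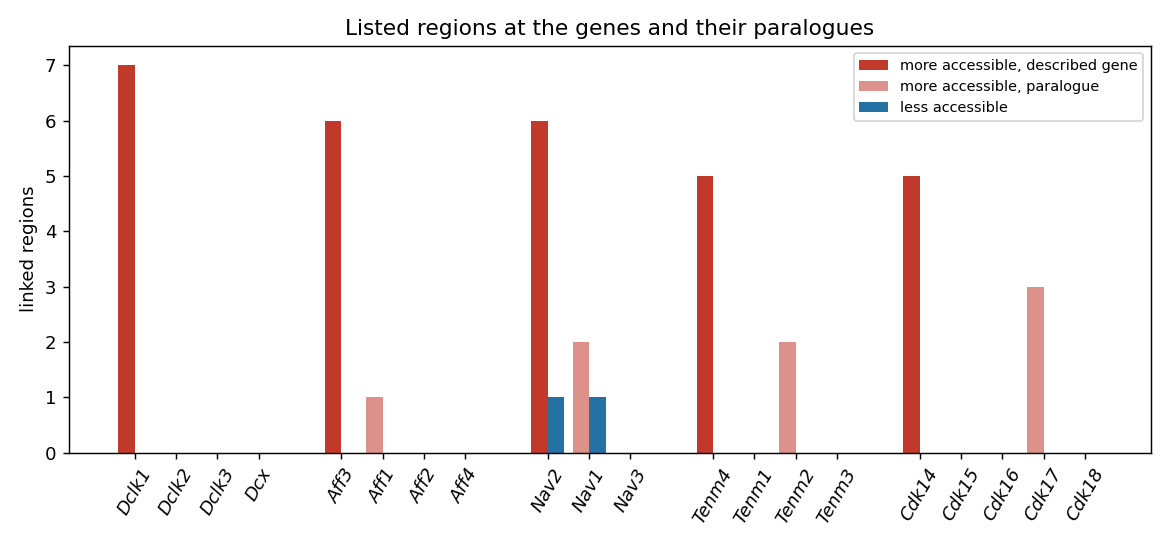
Number of linked more accessible (red, paler for paralogues) and less accessible regions (blue) at 5 of the genes, each followed by its paralogues. The described genes have 5 to 7 red regions each, and the paralogues 0 to 3.

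Wwox is 1 of several very long genes known as common fragile sites. Of 8 others, 6 (75.0%) had at least 1 more accessible region, with a median of 1.5 regions, beside 47.3% of all genes over 290 kb. They were Macrod2 with 5, Cntnap2 with 4, Immp2l with 3, Dlg2 with 2, and Fhit and Magi2 with 1 each, and Lrp1b and Ctnna3 had 0. All 8 are longer than Wwox, from 932 kb at Immp2l to 2241 kb at Cntnap2, and none reached its 0.767 regions per 100 kb. Since Wwox was chosen for a high count, this contrast follows in part from the choice and was not tested. Of the 586 genes over 290 kb, 34 had more regions per 100 kb than Wwox.

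Long genes with many regions were few. Among the 586 genes over 290 kb, 309 had no more accessible region, 130 had 1, 73 had 2, 32 had 3 and 22 had 4. A further 12 had 5, 5 had 6, 2 had 7 and 1, the dynamin gene Dnm3, had 10. Of these, Dclk1 and Wwox had 7, Aff3 and Nav2 had 6, and Tenm4 and Cdk14 had 5. Dclk1 is among the shortest, since 567 of the 586 are longer, and Wwox is among the longest, with 71 longer. Regions inside the 6 spans came to 0.908 per 100 kb over the genes together, against 0.154 over all 586 genes, a difference that the rule itself makes.

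**Figure D4:**
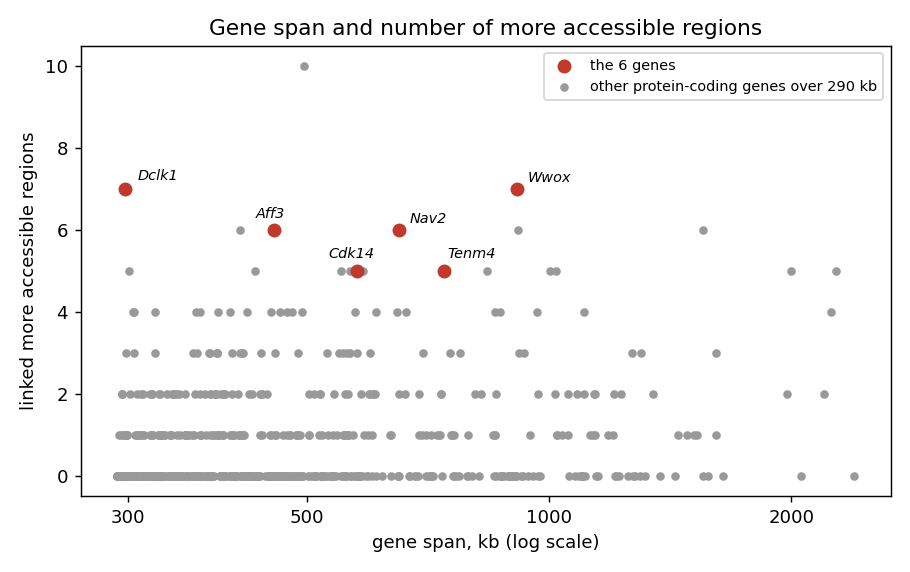
Number of linked more accessible regions (y axis) against gene span in kb (x axis, log scale) for the 6 genes (red) and the other 580 protein-coding genes over 290 kb (grey). The 6 genes lie at 5 to 7 regions over spans of 297 to 913 kb, and the grey point at 10 is Dnm3.

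Other genes had like numbers. The remaining genes over 290 kb with 6 regions were Adamtsl1, Bbs9 and Robo2, and those with 5 included Slit3 (0.852 per 100 kb), Rad51b (0.907) and Smyd3 (0.883), which were close to Cdk14 (0.867) in span and density. Just outside the limit of rows, with 4 regions, were 22 genes, among them Plce1 (1.32 per 100 kb), Cmss1 (1.31) and Vps13d (1.23). Just under the limit of span, Adamtsl3 with 279 kb, Fmnl2 with 276 kb, Mylk with 257 kb and Lmo7 with 205 kb had 5 regions each, and their densities, 1.79, 1.81, 1.94 and 2.44 per 100 kb, exceeded those of the 6 genes other than Dclk1. The density of Lmo7 exceeded that of Dclk1 too.

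The label of the cells as fibroblasts could not be checked by levels of markers, since the lists hold changed regions alone. Among 10 fibroblast and mesenchyme markers, Prrx1 and Twist2 had 2 more accessible regions each and the other 8, such as Col1a1, Pdgfra and Vim, had 0. That is 20% with a more accessible and 0% with a less accessible region, beside 7.27% and 1.99% of all protein-coding genes. Since several of the 6 genes are known from neurons, 10 neural markers were looked up as well. Map2 had 1 more accessible region, Pax6 and Nes had 1 less accessible region each, and the other 7, among them Sox2, Tubb3 and Rbfox3, had 0. That is 10% with a more accessible and 20% with a less accessible region, beside the same shares of all genes. A part of other cell types in these counts was not tested.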

How the data were processed

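ATAC-seq of mouse embryonic fibroblasts, 3 FOP mutant and 3 wild-type libraries, is available as 2 lists of regions. Per the submitters' processing notes, the authors used DESeq2, featureCounts, MACS2, Bowtie2, Trimmomatic, SAMtools and bedtools, with mm10 and GRCm38 as genome builds. The deposited values are start and end positions in base pairs. Not given in the sources used here are the cutoff of the lists, the transposase offset, the handling of duplicates and the pooling of libraries for peak calling. Peaks that did not change are not analysed here, so counts cannot be read against all open chromatin.

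Positions were counted from 1. Gene spans came from the RefSeq table of GRCm38.p6, and strand, transcription starts and promoter sequences from its promoter table. Exons were not used here. Linking was done in Python 3.11.15 and checked on simulated regions with known links. The genes named are the 6 genes, their neighbours and paralogues, a list of fragile site genes (of which 1 is not reported here), 2 marker lists, genes over 290 kb with 4 or more regions and genes of 200 to 290 kb with 5 or more. The members and lists were chosen with earlier results of these data known. No test was made, because the rule used the only contrast. Settings that were varied were the link, the limit of distance, merging, a minimum width and the limits of span and number.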

Additional observations from a re-analysis of the deposited data

How the results depend on the processing

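No paired analysis was possible because the lists hold no value per library, and leaving out a replicate could not be done for the same reason. Of 42 counts of more accessible regions, from 7 alternatives at 6 genes, 33 were within 1.5 times the reported count, and 9 were not. All 42 counts of less accessible regions were equal to the reported ones. For the genes without such a region, alternatives that only drop rows or links could not have changed the count. Linked to the nearest gene end within 100 kb, Wwox, Nav2 and Cdk14 kept 1 region each and Tenm4 3, since a region over 100 kb from every gene end is then linked to no gene, while Dclk1 had 6 and Aff3 5. With inside regions alone, Aff3 had 3 (0.660 per 100 kb). Among regions of at least 500 bp, Dclk1 and Tenm4 had 4, Wwox and Cdk14 3 and Nav2 2, because fewer rows were left. Aff3, with 5, was then the only 1 of the 6 genes with 5 or more. By nearest gene end, 2 of the 6 had 5 or more. With a limit of 10 kb outside genes, 5 of the 6 did, and Aff3 had 4. With regions within 10 kb merged, all 6 genes still had 5 or more. Neighbours within 50 kb, in place of 10 kb, were found for 22 of the 36 regions. Among genes over 290 kb, 42 had 4 or more regions and 8 had 6 or more, against 20 with 5 or more. With depth unknown, a gene with few listed regions may have others that did not pass the authors' cutoff.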

Other observations

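Non-coding transcripts run through several of the 6 genes, and some regions lay within them. The 6 spans overlap 22 non-coding genes or pseudogenes of RefSeq. Of the 36 more accessible regions, 5 (13.9%) had their midpoint inside a non-coding gene, against 343 of 2965 (11.6%) in the whole list. These were 1 region of Wwox inside the lncRNA gene Gm39257, 1 region of Aff3 inside Gm16150, 2 of the 5′ regions of Aff3 inside Gm34596 and the 5′ region of Nav2 inside Gm32849. The regions at Gm39257 and Gm16150 lay 4.65 and 9.74 kb from the listed start of that lncRNA gene, nearer than to any listed start of a protein-coding gene. No start of Wwox is listed, so the region at Gm39257 could not be compared with a start of its own gene. The microRNA genes Mir708 and Mir6394 lie inside Tenm4, and neither overlaps a listed region.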
